A study of Mus musculus with 18 samples.

Results

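Ly6c1, Ly6c2, Ly6a, Plac8 and Cd14 were taken here as a set of genes linked to classical monocytes in the mouse. Ly6a is induced in many leukocytes and is not particular to monocytes. The RNA of the 5 genes was followed in conventional dendritic cells (cDC) of the spleen with and without ADAM10. The 5 genes were picked by symbol from the deposited transcript tables and their transcripts were summed, which gave 5 of 35754 genes. Of these, 4 passed a filter on low counts and were among the 13367 genes tested, and Ly6c1 did not pass. The members were chosen as genes whose changes were known to differ, so the differences between them are a description of these libraries.

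The samples were spleen cDC of C57BL/6 mice, sorted as living CD11c+ MHC class II+ cells, from ADAM10 KO mice and from WT mice. The 6 groups were ADAM10 KO CD4+ cDC2 and WT CD4+ cDC2, ADAM10 KO CD4-CD8- cDC2 and WT CD4-CD8- cDC2 (CD4- in the sample titles), and ADAM10 KO CD8+ cDC1 and WT CD8+ cDC1, with 3 RNA-seq libraries each. ADAM10 is a membrane protease that releases the outer part of many surface proteins and makes the first cut of ligand-bound Notch receptors. The labels give neither the way ADAM10 was deleted, nor the cells in which it was deleted, nor the age of the mice, nor whether the numbered libraries of a group came from separate animals. What the p-values weigh is thus the variation among libraries of the same group, part of which may be technical. All 6 groups shared the estimate of this spread, also in tests that compare only some of them. In bulk RNA of sorted cells, fewer cells of a type and less RNA per cell cannot be told apart.

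Ly6 proteins are small cell surface proteins held in the membrane by a glycosylphosphatidylinositol (GPI) anchor. Ly6C, the product of Ly6c1 and Ly6c2, separates classical from non-classical mouse monocytes and is also found on plasmacytoid dendritic cells and on some T cells, and Ly6a encodes Sca-1, which interferons induce in many leukocytes. CD14 is a GPI-anchored co-receptor that passes bacterial lipopolysaccharide to TLR4 and MD-2. Plac8 encodes a small cysteine-rich intracellular protein found in monocytes, granulocytes and plasmacytoid dendritic cells.

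The libraries held 12358884 to 19557469 estimated counts. Adam10 was lower in KO libraries of each population, at 41.6 to 45.9 CPM (counts-per-million) in KO against 80.6 to 129.5 CPM in WT CD4+ cells, 41.7 to 47.4 against 88.3 to 138 CPM in CD4-CD8- cells, and 28.7 to 36.4 against 57.0 to 99.0 CPM in CD8+ cells. Its log2 fold changes, from edgeR's quasi-likelihood test with Benjamini-Hochberg adjustment over all 13367 genes, were -1.18 ± 0.22, -1.25 ± 0.22 and -1.15 ± 0.23 (SE, adjusted p at most 0.00187). The summed level of 12 cDC1 markers was 14923 to 15489 CPM in KO and 10790 to 12600 CPM in WT CD8+ libraries, and at most 3122 CPM in any cDC2 library. The cDC2 markers summed to at least 2521 CPM in every cDC2 library and to at most 933 CPM in any CD8+ library. Single markers changed with genotype too: of 12 cDC1 markers 5 rose and 3 fell in KO CD4+ cells, 6 rose and 2 fell in KO CD4-CD8- cells and 3 rose and 1 fell in KO CD8+ cells, and of 13 tested cDC2 markers 5 rose and 5 fell, 5 rose and 6 fell, and 3 rose and 7 fell.

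Plac8 RNA fell in all 3 KO populations, Cd14 and Ly6c2 RNA rose in both KO cDC2 populations without a called change in KO CD8+ cDC1, and Ly6a passed the test in no comparison of genotypes. The threshold for a call was an adjusted p of 0.05, and only called genes are said to have risen or fallen. In CD4+ cDC2, 3 of the 4 tested members were called, 2 higher and 1 lower, beside 35.1% of all tested genes called there (18.5% higher, 16.6% lower). The count was also 3 of 4 in CD4-CD8- cDC2, 2 higher and 1 lower, beside 26.0% of all genes (14.6% higher, 11.4% lower). In CD8+ cDC1 it was 1 of 4, lower, beside 15.7% of all genes (7.02% higher, 8.66% lower). These shares of all tested genes are also the background for every KO minus WT count of listed genes in this report, marker lists included. The plot of TPM by library shows all 5 genes.

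**Figure D1:**
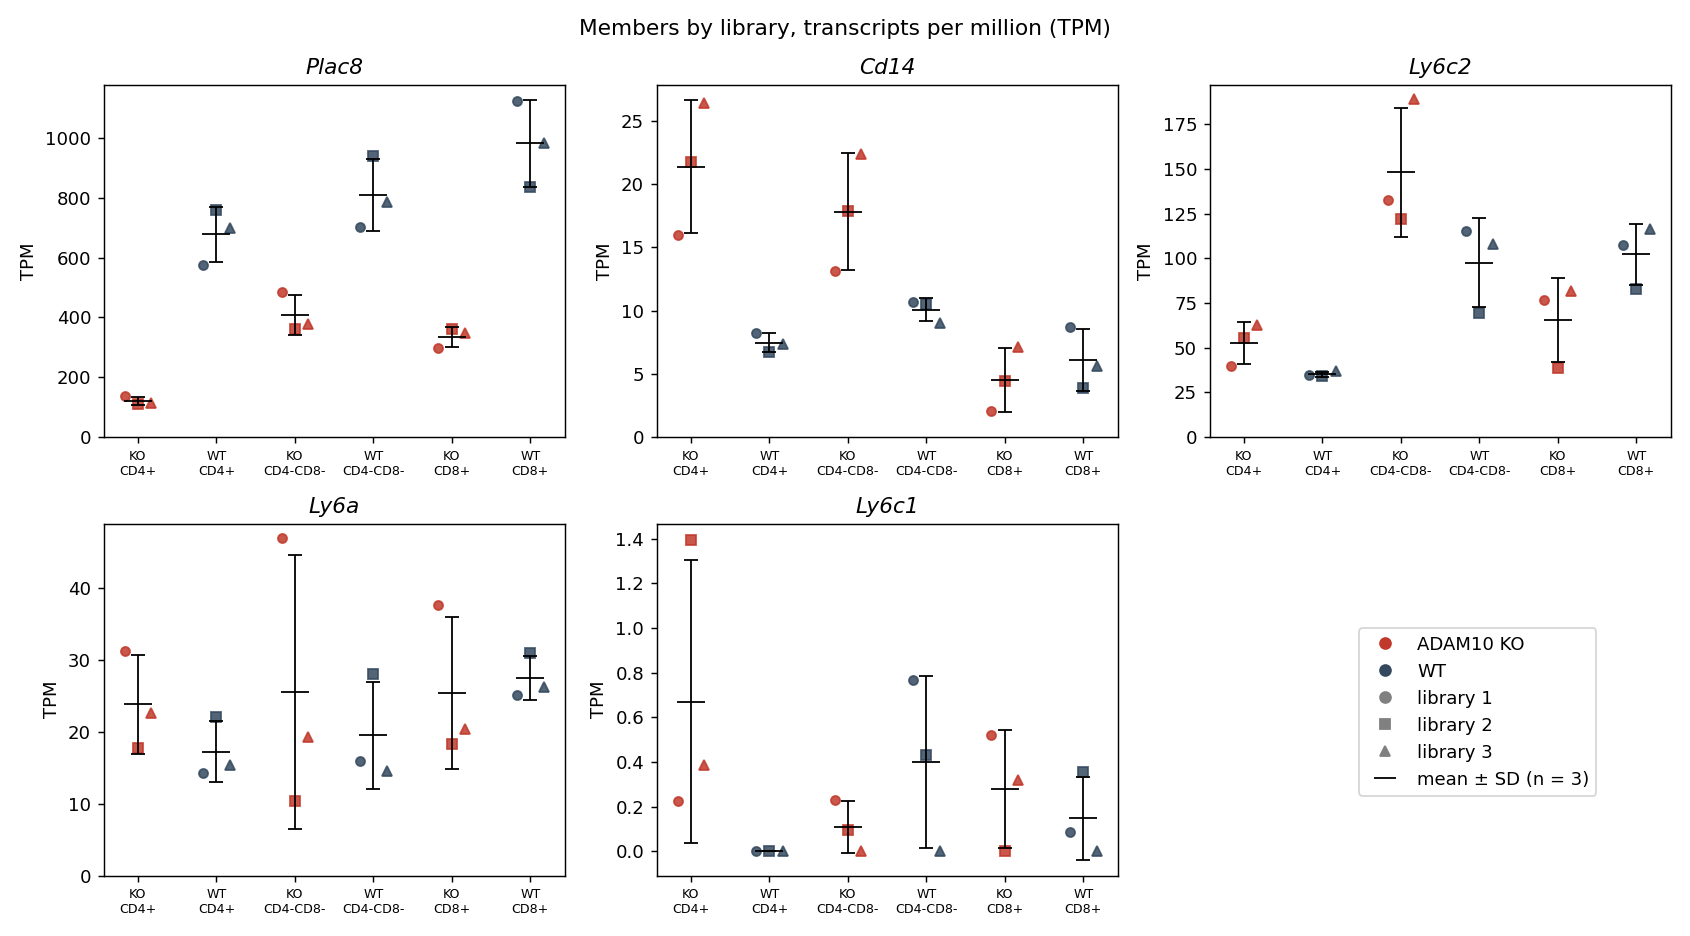
Level of the 5 members in transcripts-per-million (TPM, linear axes) in each of the 18 libraries, by genotype and population, with mean ± SD (n = 3); the marker shape gives the library number in the labels. Plac8 lies lower in all KO groups, Cd14 and Ly6c2 higher in both KO cDC2 groups, Ly6a is highest in the KO library numbered 1 of every population, and Ly6c1 stays at or under 1.40 TPM.

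**Figure D2:**
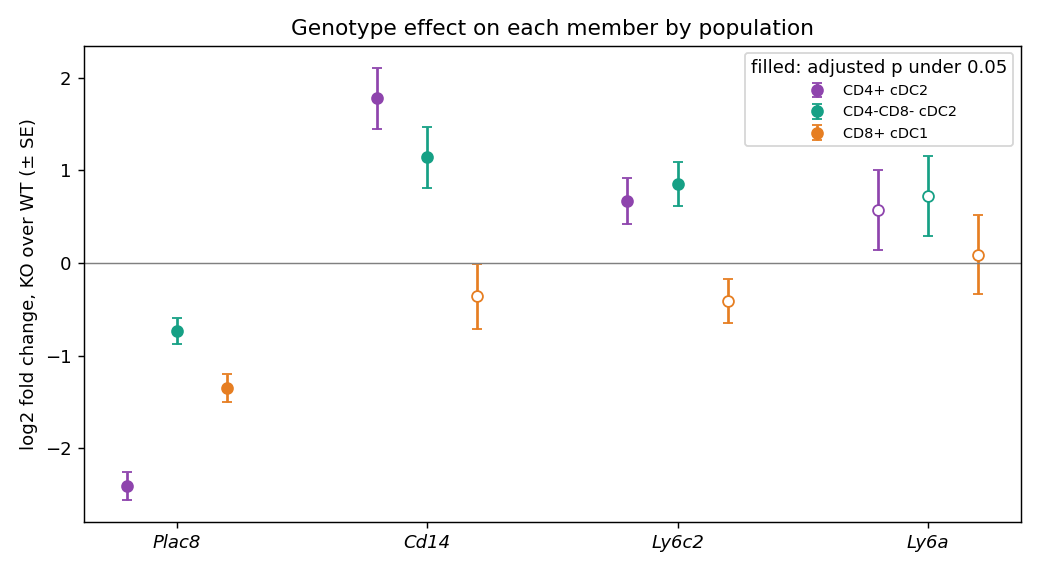
Log2 fold change of KO over WT with its standard error for the 4 tested members, by population. Filled points passed the adjusted p of 0.05: all 3 Plac8 points lie below 0, the CD4+ and CD4-CD8- points of Cd14 and Ly6c2 lie above 0, and no Ly6a point is filled.

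Ly6c1 and Ly6c2 are neighbours on the minus strand of mouse chromosome 15 in GRCm38, at chr15:75044018-75048830 and chr15:75108158-75111970, and Ly6a lies near them at chr15:74994877-74998031. The coding sequences of Ly6c1 and Ly6c2 are shown because they are near copies that share part of their reads. Over the 396 bases of the coding sequence of transcript 201 in GENCODE M21 they differ at 9 bases (97.7% identity). Each line gives the first 120 bases of it, 5′ to 3′, and capitals mark the 6 of the 9 differences that lie there.
Ly6c1-201: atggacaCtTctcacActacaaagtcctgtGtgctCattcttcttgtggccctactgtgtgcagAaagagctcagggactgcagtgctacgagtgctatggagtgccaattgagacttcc
Ly6c2-201: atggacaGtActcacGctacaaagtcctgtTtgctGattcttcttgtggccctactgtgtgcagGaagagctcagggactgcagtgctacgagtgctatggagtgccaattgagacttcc
The longest identical stretch spans 188 bases, and 144 of the 338 windows of 59 bases (the read length) in this coding sequence, or 42.6%, are the same in both. Over all annotated transcripts, 12.2% of the distinct 59-base windows of Ly6c2 also occur in another gene (12.0% in Ly6c1), against 27.6% of those of Ly6c1 (18.6% in Ly6c2, 9.01% in Ly6a) and 14.7% of those of Ly6a (12.1% in Ly6c1). By transcript, the shared part was larger for those that held most of the Ly6c2 TPM. It was 27.5% for Ly6c2-201, 35% for Ly6c2-203 and 30% for Ly6c2-204, all shared with Ly6c1. For Ly6c2-202, with 2680 bases and 0.204% of the Ly6c2 TPM, it was 10.6%. No such window of Plac8 or Cd14 occurs in another gene.

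Nearly all Ly6C RNA was assigned to Ly6c2. Over the 18 libraries Ly6c1 received 57.9 estimated counts and Ly6c2 received 20629, so that Ly6c1 held 0.281% as many, and at most 2.07% as many in any 1 library. Ly6c1 was at 0 in 7 libraries. Of the Ly6c2 TPM, transcript 201 held 45.5%, transcript 204 held 32.2% and transcript 203 held 22.0%.

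In CD4+ cDC2 the KO libraries had 39.9, 55.6 and 62.9 TPM of Ly6c2, against 34.8, 34.0 and 36.8 TPM in the WT libraries. In CD4-CD8- cDC2 the levels were 133, 122 and 189 TPM in KO and 115.4, 69.5 and 108 TPM in WT. In CD8+ cDC1 they were 76.5, 38.5 and 81.7 TPM in KO and 107, 83.0 and 116.1 TPM in WT. All KO libraries lay above all WT libraries in both cDC2 populations and below them in CD8+ cDC1, although in CPM the CD8+ groups overlapped, at 42.1 to 85.5 CPM in KO against 76.4 to 103 CPM in WT.

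Ly6c2 rose by 0.67 ± 0.25 on the log2 scale in KO CD4+ cDC2 (SE, edgeR, adjusted p = 0.0476) and by 0.85 ± 0.24 in KO CD4-CD8- cDC2 (adjusted p = 0.0157). In KO CD8+ cDC1 its log2 fold change was -0.41 ± 0.24 (adjusted p = 0.302). Both increases depended on single libraries: the call in CD4+ cells was lost on leaving out any of 5 of the 6 libraries (0.53 to 0.83 over all 6, adjusted p 0.0258 to 0.166), each one but KO library 1. In CD4-CD8- cells it was lost without WT library 2 (0.63, adjusted p = 0.0927), WT library 3 (0.85, 0.051) or KO library 3 (0.67, 0.083). Neither increase was called by limma on log2(TPM + 1), at 0.55 (adjusted p = 0.167) and 0.60 (0.118). With the counts of Ly6c1 and Ly6c2 summed, the 3 log2 fold changes were 0.69 (edgeR, adjusted p = 0.0436), 0.85 (0.0163) and -0.41 (0.307), with the same calls.

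The genotype effect on Ly6c2 differed between populations. It was higher by 1.09 in CD4+ cDC2 than in CD8+ cDC1 (log2, edgeR interaction, adjusted p = 0.0345) and higher by 1.27 in CD4-CD8- cDC2 than in CD8+ cDC1 (adjusted p = 0.0222). Of the 12 libraries in each of these tests, leaving out 8 in turn lost the first call (0.83 to 1.28, adjusted p up to 0.0879) and leaving out 4 lost the second (1.02 to 1.47, adjusted p up to 0.0664). By limma on log2(TPM + 1) neither was called (1.24, adjusted p = 0.0503, and 1.29, 0.0517). Between the cDC2 populations the effects differed by -0.18 (adjusted p = 0.877).

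Markers of other cells that can carry Ly6C also differed between genotypes, and their part in the result was not tested. Of 18 markers of plasmacytoid DC, 8 were higher and 2 lower in KO CD4+ cells, 8 were higher and 2 lower in KO CD4-CD8- cells, and 1 was higher and 9 lower in KO CD8+ cells. Their summed level was 976.5 to 1192 CPM in KO against 837 to 913 CPM in WT CD4+ cells, 1115 to 1338 against 801 to 906 CPM in CD4-CD8- cells, and 516 to 672 against 749 to 990.0 CPM in CD8+ cells. Siglech, a receptor typical of plasmacytoid DC, had log2 fold changes of 0.12 ± 0.27 (adjusted p = 0.777), -0.05 ± 0.28 (0.92) and -1.03 ± 0.28 (0.0178). Those of Ccr9, another gene of this list, were 0.29 ± 0.16 (edgeR, adjusted p = 0.197), 0.51 ± 0.17 (0.0358) and -0.45 ± 0.16 (0.0685). Of 15 T cell markers, 14 fell in KO CD4-CD8- cells, to a summed 22.6 to 75.1 CPM in KO against 218 to 433 CPM in WT.

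Ly6c1 was too low for the test. It had 1.76, 19.8 and 6.49 estimated counts in KO CD4+ libraries and 0 in each WT CD4+ library. With 3 counts over the WT group in place of 0, its estimated counts per unscaled library total were 8.84-fold higher in KO CD4+ cells. Without KO library 2, which held most of the KO counts, they were 4.06-fold higher. These folds are no bounds, since the counts are estimates and how shared reads were split was not tested. Transcript 207 held 49.0% of the Ly6c1 TPM in KO CD4+ cells, and 56.2% of its 59-base windows also occur in Ly6c2 or Ly6a. In CD4-CD8- libraries Ly6c1 had 4.53, 1.57 and 0 counts in KO and 6.94, 2.78 and 0 in WT. In CD8+ libraries it had 6.94, 0 and 2.47 in KO and 1.21, 3.43 and 0 in WT. The KO and WT groups overlapped in both populations. Fitted without the filter, edgeR gave adjusted p = 0.00878 in CD4+ cells, 0.946 in CD4-CD8- cells and 0.8 in CD8+ cells.

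Ly6a showed no called difference between genotypes or between populations in the fit of all groups. KO CD4+ libraries had 31.3, 17.7 and 22.6 TPM, against 14.3, 22.1 and 15.4 TPM in WT CD4+ libraries. The CD4-CD8- libraries had 47.0, 10.5 and 19.3 TPM in KO and 15.95, 28.05 and 14.6 TPM in WT, and the CD8+ libraries had 37.6, 18.3 and 20.5 TPM in KO and 25.2, 31.0 and 26.3 TPM in WT. KO and WT overlapped in every population, and the highest KO library was the one numbered 1 each time, while the highest WT library was the one numbered 2 each time.

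The log2 fold changes of Ly6a were 0.57 ± 0.43 in CD4+ cells (edgeR, adjusted p = 0.335), 0.72 ± 0.43 in CD4-CD8- cells (0.255) and 0.09 ± 0.43 in CD8+ cells (0.928), with a standard error above that of every other tested member. Without KO library 1 the values were 0.30, -0.09 and -0.34 (adjusted p from 0.686 to 0.904), so the sign in CD4-CD8- and CD8+ cells turned without that library. On the scale of log2(TPM + 1) the value in CD8+ cells was -0.17. None of the 3 differences between populations in the genotype effect was called for Ly6a. Fitted on the compared groups only, Ly6a was lower in WT CD4+ than in WT CD8+ cells (-0.63, adjusted p = 0.0224) and in WT CD4-CD8- than in WT CD8+ cells (adjusted p = 0.0331), neither of which was called in the fit of all groups (adjusted p = 0.26 and 0.221). With a block for library number within each genotype both were called (-0.65, adjusted p = 0.00964, and -0.72, 0.006).

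The gene whose log2 CPM over the 18 libraries was most like that of Ly6a was Iigp1, an interferon-inducible GTPase of the defence against intracellular pathogens (Pearson r = 0.885, a description over libraries that share 6 groups), followed by Prkrip1, Arhgef10, Trub2 and Thyn1 (0.829 to 0.862). Iigp1 had 25.5, 1.71 and 3.37 CPM in KO CD4+ libraries, against 1.63, 1.98 and 1.47 CPM in WT CD4+ libraries. It had 22.6, 1.07 and 2.68 CPM in KO CD4-CD8- libraries, against 2.84, 2.71 and 2.33 CPM in WT. The KO CD8+ libraries had 24.2, 1.88 and 3.51 CPM, against 7.99, 15.3 and 3.85 CPM in WT. KO library 1 was thus far above the other KO libraries in all 3 populations, and Iigp1 was called in none of them (adjusted p 0.0978, 0.279 and 0.966).

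Interferon-stimulated genes, a list that includes Ly6e, were counted by the library of a group in which each was highest. KO library 1 was the highest of its group for 20 of 35 listed genes in CD4+ cells, 27 in CD4-CD8- cells and 15 in CD8+ cells, which is 57.1%, 77.1% and 42.9% of the list, beside 33.1%, 35.2% and 35.1% of all tested genes. In KO CD8+ cells libraries 2 and 3 were the highest for 10 genes each. WT library 2 was the highest for 29, 30 and 23 of the 35 (82.9%, 85.7% and 65.7%), beside 35.7%, 33.7% and 33.8% of all tested genes. Between genotypes, 7 of the 35 rose and 8 fell in KO CD4+ cells, 5 rose and 3 fell in KO CD4-CD8- cells, and 8 rose and 0 fell in KO CD8+ cells, with list medians of -0.19, 0.12 and 0.31 (log2) beside 0.02, 0.02 and 0.00 over all tested genes. Ifi44 rose in all 3 (1.36 ± 0.36, 1.47 ± 0.36 and 1.99 ± 0.35), and Isg15, a ubiquitin-like modifier, fell in CD4+ cells (-1.25 ± 0.21, adjusted p = 0.000165) and in CD4-CD8- cells (-0.70 ± 0.21, adjusted p = 0.0205, lost on leaving out any of 4 of the 6 libraries). The part of these library differences in the Ly6a values was not tested.

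**Figure D3:**
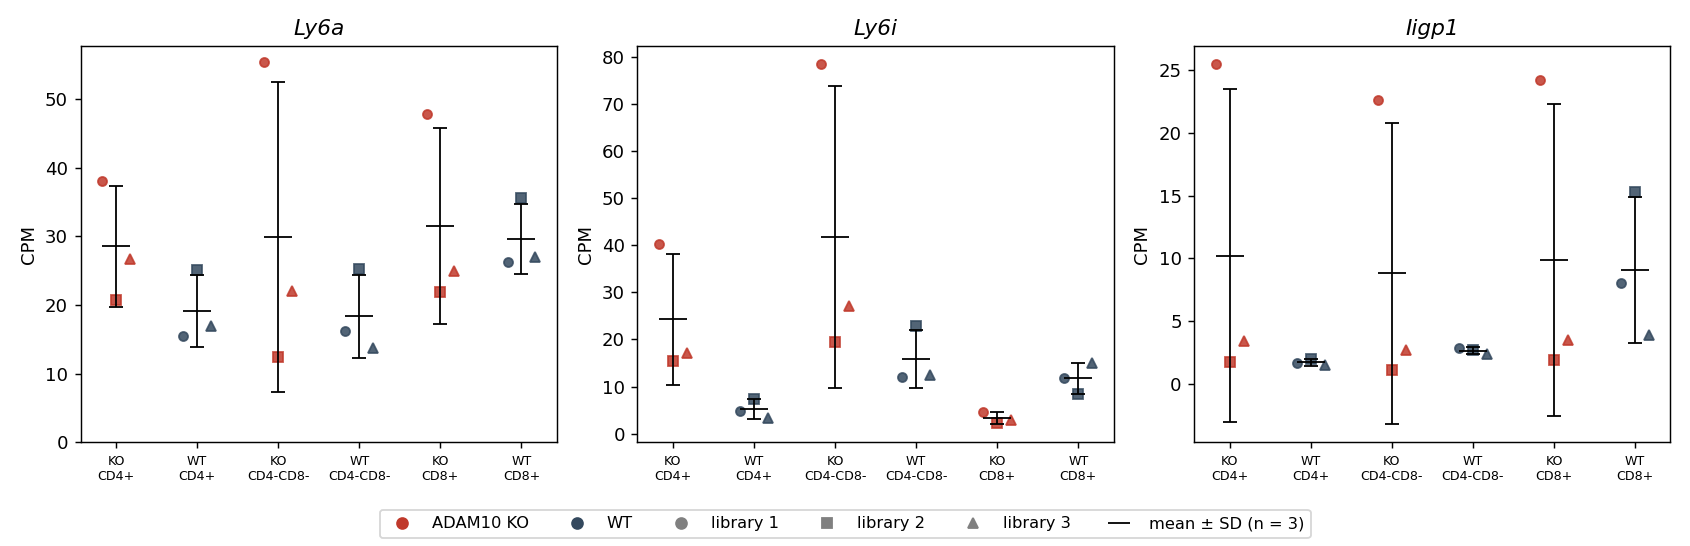
Level in CPM (linear axes) of Ly6a, of its relative Ly6i and of Iigp1 in each of the 18 libraries, by genotype and population, with mean ± SD (n = 3). KO library 1 (red circles) is the highest of its KO group in every panel and population, at 38.2, 55.4 and 47.9 CPM for Ly6a.

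Of 24 other genes of the Ly6 family, 6 passed the filter. Ly6i, a GPI-anchored relative encoded in the same cluster, was called in each population, and its direction in CD8+ cells was opposite to that in the cDC2 populations. KO CD4+ libraries had 40.2, 15.4 and 17.2 CPM of Ly6i, against 4.89, 7.41 and 3.34 CPM in WT (log2 2.20 ± 0.52, edgeR, adjusted p = 0.00302, and 1.62 without KO library 1). KO CD4-CD8- libraries had 78.5, 19.5 and 27.1 CPM, against 12.0, 22.9 and 12.4 CPM in WT (1.41 ± 0.48, adjusted p = 0.04), a call that was lost without KO library 1 (0.57, adjusted p = 0.384) and without WT library 1 or 3. KO CD8+ libraries had 4.70, 2.23 and 2.99 CPM, against 11.8, 8.37 and 15.0 CPM in WT (-1.82 ± 0.56, adjusted p = 0.0354, lost on leaving out any of 4 of the 6 libraries).

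Ly6e, the most abundant Ly6 gene here with up to 1255 TPM in 1 library, averaged 281 TPM in KO and 432 TPM in WT CD4+ cells and fell by 0.46 ± 0.14 on the log2 scale (edgeR, adjusted p = 0.0131, lost without WT library 2, KO library 2 or KO library 3). Plaur, the urokinase receptor, fell in KO CD8+ cells (-1.51 ± 0.29, adjusted p = 0.0015), to 2.99 ± 1.15 CPM against 8.53 ± 2.61 CPM in WT (SD, n = 3). Ly6d, Ly6m and Lynx1 were called in no population. Ly6g, the granulocyte marker, did not exceed 0.452 TPM in any library.

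Cd14, on chromosome 18, rose in both KO cDC2 populations. KO CD4+ libraries had 16.0, 21.8 and 26.4 TPM, against 8.23, 6.75 and 7.36 TPM in WT CD4+ libraries. KO CD4-CD8- libraries had 13.1, 17.9 and 22.4 TPM, against 10.7, 10.6 and 9.02 TPM in WT. The 3 KO libraries lay above the 3 WT libraries in both populations. In CD8+ cells the levels were 2.03, 4.47 and 7.10 TPM in KO and 8.70, 3.91 and 5.65 TPM in WT, and the groups overlapped.

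The log2 fold change of Cd14 was 1.78 ± 0.33 in CD4+ cells (edgeR, adjusted p = 0.000419), 1.14 ± 0.33 in CD4-CD8- cells (adjusted p = 0.0154) and -0.36 ± 0.35 in CD8+ cells (adjusted p = 0.555). The call in CD4+ cells remained on leaving out each library (1.66 to 1.96). In CD4-CD8- cells it was lost without WT library 3 (1.00, adjusted p = 0.0778) or KO library 3 (0.94, 0.0744). The genotype effect was higher by 2.14 in CD4+ than in CD8+ cells (interaction, adjusted p = 0.00343) and higher by 1.51 in CD4-CD8- than in CD8+ cells (adjusted p = 0.0459), the second of which was lost on leaving out any of 9 of 12 libraries (1.17 to 1.96, adjusted p up to 0.156). The second was also not called in the fit of the compared groups only (1.51, adjusted p = 0.0801) or by limma on log2(TPM + 1) (1.15, 0.139), and its adjusted p was 0.000911 with a block for library number within each genotype (1.54).

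Genes that work with CD14 changed in both directions in CD4+ cells. Of 20 tested genes of CD14 and TLR4 signalling, 5 rose and 5 fell in KO CD4+ cells, 8 rose and 1 fell in KO CD4-CD8- cells, and 2 rose and 3 fell in KO CD8+ cells (medians 0.04, 0.13 and -0.10). Tlr2, which also binds CD14-presented lipoproteins, rose to 295 ± 69.6 CPM in KO against 124 ± 12.6 CPM in WT CD4+ cells (log2 1.25 ± 0.17) and to 247 ± 51.7 against 96.7 ± 10.2 CPM in CD4-CD8- cells (1.35 ± 0.17). Ly96, which encodes MD-2, rose to 8.11 ± 1.05 against 4.10 ± 0.385 CPM in CD4+ cells (0.98 ± 0.21). Irak3, an inhibitor of signalling below the receptors, rose in both cDC2 populations (2.29 ± 0.22 and 1.12 ± 0.21). Tlr4 itself rose in KO CD8+ cells (14.5 ± 0.913 against 5.92 ± 1.01 CPM, 1.29 ± 0.24, adjusted p = 0.00124), where Cd14 was not called. In the same KO CD8+ cells Tlr1 (-1.33 ± 0.20) and Ticam2 (-1.16 ± 0.19) of this list fell. The 5 genes that fell in KO CD4+ cells are not named here.

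The gene most like Cd14 over the 18 libraries was Igf1r, the receptor of insulin-like growth factor 1 (Pearson r of log2 CPM 0.969), followed by Tbc1d17, Ccdc88a, Smox and Nceh1 (0.939 to 0.947). Igf1r averaged 16.0 ± 4.35 CPM in KO and 6.33 ± 2.01 CPM in WT CD4+ cells. The CD4-CD8- averages were 13.7 ± 3.66 CPM (KO) and 7.28 ± 1.22 CPM (WT), and the CD8+ averages 4.50 ± 1.93 CPM (KO) and 4.94 ± 1.67 CPM (WT) (SD, n = 3). These correlations describe libraries of 6 shared groups and carry no test.

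Macrophage and monocyte genes moved with Cd14 in the cDC2 populations. Of 15 markers of red pulp macrophages, 11 rose and 1 fell in KO CD4+ cells, 6 rose and 1 fell in KO CD4-CD8- cells, and 2 rose and 3 fell in KO CD8+ cells. Their sum was 1368 to 1603 CPM in KO against 640.5 to 728 CPM in WT CD4+ cells, 674 to 824 against 351 to 465 CPM in CD4-CD8- cells, and 63.3 to 109.6 against 91.8 to 124 CPM in CD8+ cells. Mrc1, the mannose receptor, rose to 160.2 ± 26.3 CPM in KO against 4.44 ± 2.23 CPM in WT CD4+ cells, whereas Spic, the transcription factor that red pulp macrophages depend on, fell in both cDC2 populations (-1.29 ± 0.23 and -1.78 ± 0.25). Their part in the Cd14 values was not tested.

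Of the 4 tested members Plac8 had the largest genotype effect in CD4+ cells, and it was called in every population. It lies on the minus strand at chr5:100553725-100572245, and transcript 201 held 99.2% of its TPM. KO CD4+ libraries had 136, 111 and 114 TPM, against 576, 759 and 697.5 TPM in WT CD4+ libraries. KO CD4-CD8- libraries had 484, 361 and 378 TPM, against 701, 938 and 785 TPM in WT, and KO CD8+ libraries had 297, 360.3 and 348 TPM, against 1125, 835.5 and 984 TPM in WT. No KO library reached the level of any WT library of its population.

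Plac8 fell by 2.41 ± 0.15 on the log2 scale in KO CD4+ cells (edgeR, adjusted p = 4.37e-09), by 0.73 ± 0.14 in KO CD4-CD8- cells (adjusted p = 0.00128) and by 1.35 ± 0.15 in KO CD8+ cells (adjusted p = 6.95e-06). All 3 calls remained on leaving out each library in turn, with adjusted p at most 0.0102. The effect in CD4+ cells was stronger than in CD4-CD8- cells (difference -1.69, interaction, adjusted p = 0.000177) and stronger than in CD8+ cells (-1.06, adjusted p = 0.00114). Between CD4-CD8- and CD8+ cells the difference of 0.62 was not called (adjusted p = 0.0531), and it passed in the fit of these groups alone (adjusted p = 0.0415) with DESeq2 (adjusted p = 0.0214) and with a block for library number within each genotype (adjusted p = 0.0456).

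The gene most like Plac8 was Serpinb2, an inhibitor of plasminogen activators that monocytes and macrophages make (Pearson r of log2 CPM 0.953 over 18 libraries), followed by Nxn, Tmem156, Mob3a and Lims1 (0.901 to 0.933). Serpinb2 averaged 0.358 ± 0.0874 CPM in KO and 9.91 ± 3.22 CPM in WT CD4+ cells. The CD4-CD8- averages were 1.90 ± 0.51 CPM (KO) and 7.85 ± 1.74 CPM (WT), and the CD8+ averages 2.64 ± 0.795 CPM (KO) and 21.2 ± 4.25 CPM (WT) (SD, n = 3). It fell by 4.75 ± 0.36, 2.05 ± 0.29 and 3.01 ± 0.28 on the log2 scale (edgeR, adjusted p at most 7.02e-05), and in each population the KO and WT libraries did not overlap. By these fold changes its fall was strongest in CD4+ cells and weakest in CD4-CD8- cells, as for Plac8. Its mean TPM gave another order of the weaker falls. The CD4+ means were 1.09 TPM (KO) and 9.67 TPM (WT), and the CD4-CD8- means 6.18 TPM (KO) and 21.5 TPM (WT). With CD8+ means of 5.23 TPM (KO) and 16.4 TPM (WT), the ratio of KO to WT was nearest to even in CD8+ cells. Neither ranking was tested for Serpinb2.

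**Figure D4:**
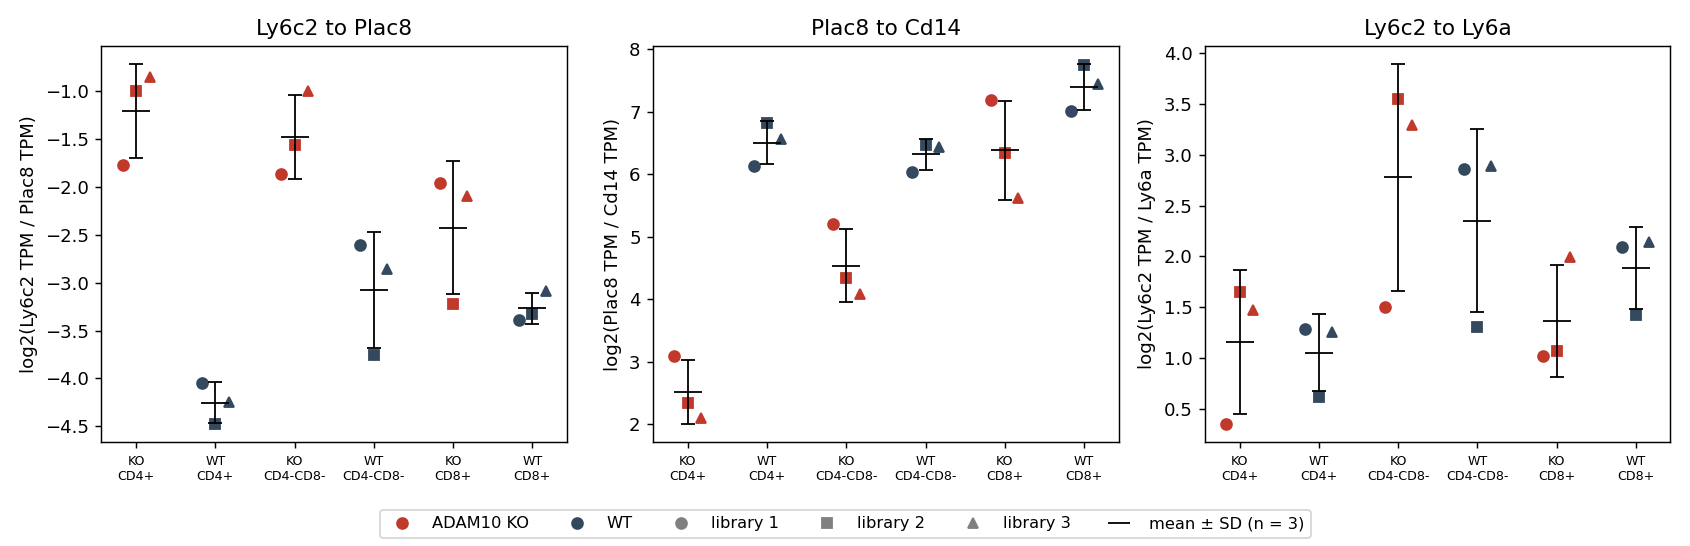
Log2 ratio of the TPM of Ly6c2 to Plac8, of Plac8 to Cd14 and of Ly6c2 to Ly6a in each of the 18 libraries, by genotype and population, with mean ± SD (n = 3). The first ratio is higher and the second lower in KO cells, without overlap in CD4+ and CD4-CD8- cells, and the third overlaps in every population.

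Ratios within a library do not depend on how libraries were scaled, so the members were also set against each other in TPM. The log2 ratio of Ly6c2 to Plac8 averaged -1.20 ± 0.491 in KO and -4.26 ± 0.215 in WT CD4+ cells, -1.48 ± 0.441 and -3.07 ± 0.605 in KO and WT CD4-CD8- cells, and -2.43 ± 0.697 and -3.27 ± 0.162 in KO and WT CD8+ cells (SD, n = 3). The KO libraries lay above the WT libraries in both cDC2 populations, and the groups overlapped in CD8+ cells. The log2 ratio of Plac8 to Cd14 averaged 2.51 ± 0.512 in KO and 6.50 ± 0.347 in WT CD4+ cells, 4.54 ± 0.590 and 6.32 ± 0.243 in KO and WT CD4-CD8- cells, and 6.38 ± 0.788 and 7.40 ± 0.364 in KO and WT CD8+ cells, and here too only the CD8+ groups overlapped.

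The log2 ratio of Ly6a to Plac8 was higher in KO cells by 2.95 in CD4+ cells and by 1.36 in CD8+ cells without overlap, and by 1.17 in CD4-CD8- cells with overlap. The log2 ratio of Ly6c2 to Cd14 averaged 1.31 ± 0.052 in KO against 2.25 ± 0.144 in WT CD4+ cells, without overlap, and it overlapped in the other populations. Ly6a to Cd14 and Ly6c2 to Ly6a overlapped in every population, with a spread of up to 1.12 (SD) within a group for the second. The members were chosen as genes that differ, so these ratios carry no test.

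Between populations the members were ordered differently as well. Over the 6 groups Ly6c2 was highest in KO CD4-CD8- cells, at 121 to 174 CPM, apart from the next group (WT CD8+, 76.4 to 103 CPM), and lowest in WT CD4+ cells, at 31.9 to 33.6 CPM, apart from KO CD4+ cells (39.9 to 61.7 CPM). The 4 groups between them overlapped, each with the next. Plac8 was highest in WT CD8+ cells (688 to 879 CPM) and lowest in KO CD4+ cells (91.8 to 123 CPM), both apart from their neighbours in the order. Cd14 was highest in KO CD4+ cells (56.8 to 89.7 CPM), which overlapped with KO CD4-CD8- cells (42.0 to 75.3 CPM), and the 4 groups below reached at most 31.5 CPM. Every pair of neighbouring groups overlapped for Ly6a.

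In WT cells, 2 of the 4 members were lower in CD4+ cDC2 than in CD8+ cDC1, beside 45.7% of all genes called in that comparison (22.7% higher, 23.0% lower). The log2 difference was -1.47 for Ly6c2 (edgeR, adjusted p = 0.00014) and -0.50 for Plac8 (adjusted p = 0.00906, lost without either of 2 libraries, up to 0.063). In WT CD4-CD8- cDC2 against CD8+ cDC1, only Plac8 was called (-0.46, adjusted p = 0.0151, lost without any of 3 of 6 libraries), beside 42.9% of all genes (21.9% higher, 21.0% lower). In WT CD4+ against CD4-CD8- cells, only Ly6c2 was called (-1.25, adjusted p = 0.00224), beside 16.8% of all genes (7.11% higher, 9.64% lower).

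In KO cells the calls of Cd14, Ly6c2 and Plac8 against CD8+ cDC1 differed from those in WT cells. KO CD4+ cDC2 had higher Cd14 (2.39, adjusted p = 1.72e-05) and lower Plac8 (-1.56, adjusted p = 1.42e-07) than KO CD8+ cDC1, which made 2 of 4 members beside 50.9% of all genes called (25.7% higher, 25.1% lower). KO CD4-CD8- cDC2 had higher Cd14 (2.00, adjusted p = 0.000125) and higher Ly6c2 (1.04, adjusted p = 0.00216) than KO CD8+ cDC1, 2 of 4 beside 46.7% of all genes (24.3% higher, 22.3% lower). Plac8, lower in WT CD4-CD8- than in WT CD8+ cells, was not called between these KO populations (0.16, edgeR, adjusted p = 0.39). Ly6c2, lower in WT CD4+ than in WT CD8+ cells, was not called between KO CD4+ and KO CD8+ cells (-0.39, adjusted p = 0.21). KO CD4+ had lower Ly6c2 (-1.43, adjusted p = 0.00148) and lower Plac8 (-1.72, adjusted p = 2.23e-06) than KO CD4-CD8- cells, 2 of 4 beside 7.94% of all genes (3.16% higher, 4.78% lower). The differences in genotype effect given above are the tests of these contrasts between KO and WT. Of the members, 3 of 4 were called for CD4+ minus CD8+, 2 higher and 1 lower, beside 22.2% of all genes (12.6% higher, 9.55% lower). For CD4-CD8- minus CD8+ 2 of 4 were called, both higher, beside 13.2% (8.24% higher, 4.97% lower), and for CD4+ minus CD4-CD8- 1 of 4, lower, beside 3.76% (2.48% higher, 1.27% lower).

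**Figure D5:**
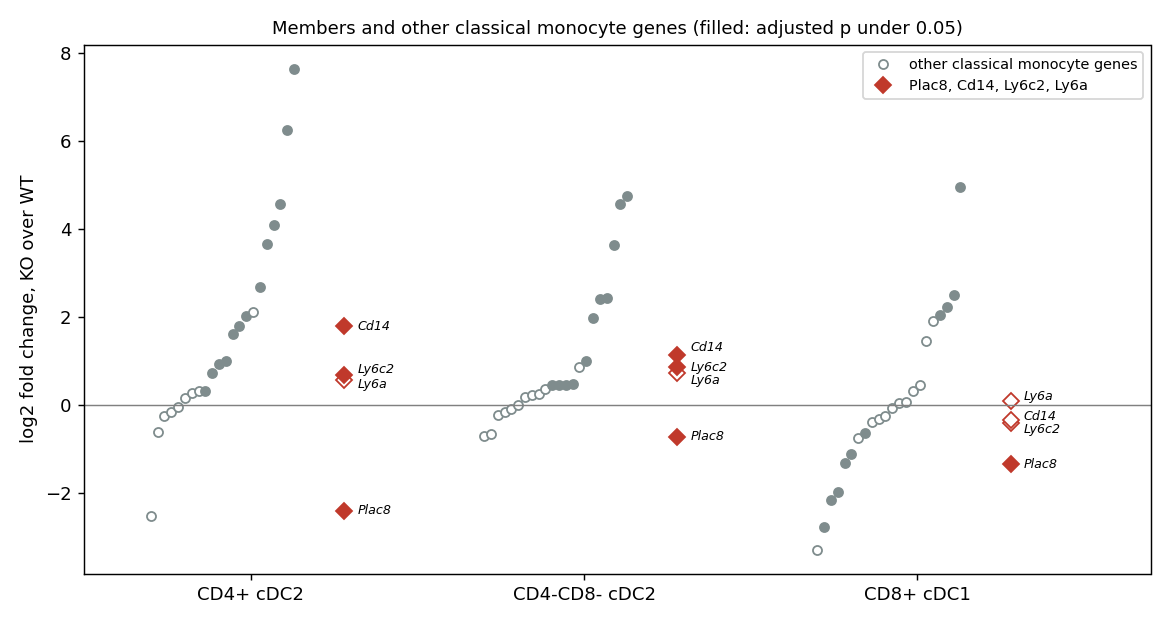
Log2 fold change of KO over WT in each population for 22 other classical monocyte genes (grey circles, sorted by value) and for 4 members (red diamonds). Filled symbols passed the adjusted p of 0.05. In both cDC2 populations the called grey points lie above 0 and Plac8 lies below 0, and in CD8+ cDC1 called points lie on both sides.

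The members were set beside 22 other tested classical monocyte genes. In KO CD4+ cells 13 rose, 0 fell and 9 were not called (median log2 0.95 beside 0.02 over all tested genes), and in KO CD4-CD8- cells 11 rose, 0 fell and 11 were not called (median 0.45 beside 0.02). In KO CD8+ cells 4 rose and 6 fell (median -0.17 beside 0.00). The summed level of the list was 18156 to 22163 CPM in KO against 4765 to 5154 CPM in WT CD4+ cells, 12349 to 15332 against 4227 to 4769 CPM in CD4-CD8- cells, and 1905 to 2193 against 946 to 1178 CPM in CD8+ cells. Fn1, which encodes fibronectin, averaged 200.3 ± 74.8 CPM in KO against 0.984 ± 0.555 CPM in WT CD4+ cells (log2 7.64 ± 0.50), F13a1, a clotting factor subunit, 33.2 ± 11.6 against 0.413 ± 0.31 CPM (6.25 ± 0.42), and Lyz1, a lysozyme, 2895 ± 361 against 122 ± 5.19 CPM (4.57 ± 0.19). Lyz1 and Lyz2 are near copies, and how their shared reads were split was not tested. In KO CD8+ cells Ccr2, the chemokine receptor of classical monocytes, rose (2.23 ± 0.11) while Csf1r, the receptor of the growth factor CSF1, fell (-2.77 ± 0.17).

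Some listed genes of classical monocytes, named after their values were seen, stayed at or near 0 in every group. Other genes of that list, among them Fn1 and Lyz1, rose in KO CD4+ cells as given above. S100a8, Vcan and Chil3 did not exceed 0.890 CPM in any library, and S100a8 was at 0 in all 6 CD4+ libraries. Of 15 genes of non-classical monocytes, 6 rose and 8 fell in KO CD4+ cells, 3 rose and 7 fell in KO CD4-CD8- cells, and 0 rose and 6 fell in KO CD8+ cells (medians -0.68, -0.63 and -0.35). Cx3cr1, the fractalkine receptor, rose in both cDC2 populations (2.42 ± 0.20 and 1.33 ± 0.19) and fell in CD8+ cells (-2.57 ± 0.22), while Treml4 fell in CD4+ cells (-2.46 ± 0.20) and Ace in CD4-CD8- cells (-1.50 ± 0.32).

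Ly6C, Sca-1 and CD14 need the GPI anchor. Of the 29 genes of its synthesis and processing, 22, 22 and 25 were not called in the CD4+, CD4-CD8- and CD8+ comparisons. Over all tested genes 35.1%, 26.0% and 15.7% were called there, so the counts do not set this list apart. In KO CD4+ cells 6 rose and 1 fell, in KO CD4-CD8- cells 7 rose and 0 fell, and in KO CD8+ cells 3 rose and 1 fell (medians 0.15, 0.09 and -0.03). Pgap2, which remodels the lipid part of the anchor, averaged 109.5 ± 1.79 CPM in KO against 70.3 ± 1.19 CPM in WT CD4+ cells (0.64 ± 0.09) and 112 ± 2.87 against 70.1 ± 7.32 CPM in CD4-CD8- cells (0.67 ± 0.09). Pgap1, which removes an acyl chain from the anchor, fell in KO CD8+ cells (-1.61 ± 0.24).

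Markers of other cells moved too, and their part in the member values was not tested. NK cell markers summed to 314 to 393 CPM in KO against 558 to 1068 CPM in WT CD4-CD8- cells (10 of 13 fell), 96.0 to 136 against 162 to 211 CPM in CD8+ cells (7 fell) and 123 to 168 against 114 to 135 CPM in CD4+ cells (1 rose). T cell markers summed to 15.6 to 35.5 CPM in KO against 52.6 to 79.7 CPM in WT CD8+ cells (4 of 15 fell) and to 28.6 to 50.2 against 39.0 to 42.6 CPM in CD4+ cells (2 rose, 1 fell). Of 16 tested B and plasma cell markers, 3 rose and 2 fell, 2 rose and 3 fell, and 0 rose and 5 fell in the CD4+, CD4-CD8- and CD8+ comparisons. Among 8 tested endothelial and stromal markers these counts were 3 and 1, 3 and 1, and 0 and 5. Of 13 neutrophil markers only 3 passed the filter, 1 of which rose in CD4+ cells, and Elane was at 0 in all groups.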

How the data were processed

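RNA-seq of 18 libraries (6 groups of 3) was used at transcript level. Per the submitters' processing notes, FastQC 0.11.8, Salmon 0.14.1 and GRCm38 were used; the annotation release is not given in the sources used here, nor whether strand was used, so reads from a gene and from an antisense partner cannot be told apart. The authors deposited estimated counts (117135 transcripts) and TPM (84086 transcripts, scaled by the authors for length and library total), from single-end reads of 59 bases per the labels' protocols. The 33049 transcripts found only in the count table had 0 counts. Transcripts were summed per gene and counts were rounded; 929 transcripts without a gene name stayed out (a share of up to 0.17% of the counts in a library). GENCODE M21 held 98.5% of the transcript identifiers and gave positions and sequences.

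Genes were filtered with filterByExpr and scaled by TMM, and 1 mean per group was fitted with edgeR 4.0.16 under R 4.3.3 (quasi-likelihood F test, two-sided, 12 residual degrees of freedom, Benjamini-Hochberg over 13367 genes). The SE is the log2 fold change divided by the square root of F. CPM use TMM-scaled totals. Alternatives were RLE and upper quartile scaling, no filter, a filter of 10 counts, DESeq2 1.42.0, limma 3.58.1 on log2(TPM + 1) and log2(TPM + 0.1), a replicate block, a replicate block within genotype (added after seeing the data), the compared groups only, Ly6c1 and Ly6c2 summed, and leaving out each library.

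The members and the 15 gene lists were chosen with earlier results of these data known. Named genes are the members, Adam10, up to 4 called genes per list and KO and WT comparison (largest changes, at least 5 CPM in the higher group) and the 5 genes most like each member. Beyond that rule, Siglech, Ccr9, S100a8, Vcan, Chil3, Elane, Ly6d, Ly6g, Ly6m, Lynx1 and, in CD4+ cells, Spic were named after their values were seen. The labels number libraries 1 to 3 in each group. Deviations from the group mean of same-numbered KO and WT libraries correlated at -0.05 to 0.15, so the numbers were not taken to pair them. Within genotypes the same correlations were 0.22 to 0.26 for KO CD4-CD8- with CD8+ libraries and 0.15 to 0.18 for KO CD4+ with CD8+ libraries. The labels give no reason for this. The main fit had no block in any comparison, so its p-values take no account of a likeness of same-numbered libraries. The replicate block within genotype was run as an alternative only. They were 0.06 to 0.21 for KO CD4+ with CD4-CD8- libraries and 0.05 to 0.20 among WT populations. Library pairs of a group differed by a chi-square of 9.75 to 33.3 per gene, beyond counting error.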

Additional observations from a re-analysis of the deposited data

Results flagged for a closer look

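The genotype effect (KO minus WT) differed between populations for 3 members, by edgeR's interaction test with Benjamini-Hochberg adjustment (n = 3 libraries per group). For Ly6c2 the effect in CD4+ cDC2 exceeded that in CD8+ cDC1 by 1.09 on the log2 scale (adjusted p = 0.0345), and the effect in CD4-CD8- cDC2 exceeded it by 1.27 (adjusted p = 0.0222). These calls were lost on leaving out 8 and 4 of the 12 libraries in turn, and by limma on log2(TPM + 1) (1.24, adjusted p = 0.0503, and 1.29, 0.0517). For Cd14 the same differences were 2.14 (adjusted p = 0.00343) and 1.51 (adjusted p = 0.0459). The second call was lost on leaving out 9 of the 12 libraries in turn, with the compared groups only (adjusted p = 0.0801) and by limma on log2(TPM + 1) (1.15, adjusted p = 0.139). For Plac8 the effect in CD4+ cDC2 minus that in CD8+ cDC1 was -1.06 (adjusted p = 0.00114), and minus that in CD4-CD8- cDC2 it was -1.69 (adjusted p = 0.000177). Ly6a had no called difference.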

How the results depend on the processing

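All values are log2 differences unless given as counts of genes. The 3 falls of Plac8 and the rise of Cd14 in KO CD4+ cells kept their direction and their call under every alternative run. The rise of Ly6c2 in KO CD4+ cells was no longer called with RLE scaling (0.67, adjusted p = 0.0511) or with limma on log2(TPM + 1) and log2(TPM + 0.1) (0.55 and 0.56), and ran from 0.53 to 0.83 on leaving out 1 library. In KO CD4-CD8- cells limma on the same scales called neither Ly6c2 (0.60 and 0.61) nor Cd14 (0.74 and 0.78), and leaving out 1 library gave 0.63 to 1.05 for Ly6c2 and 0.94 to 1.35 for Cd14. Ly6a turned in sign in KO CD8+ cells on the TPM scales (-0.17 and -0.18), and leaving out 1 library gave -0.34 to 0.30 there and -0.09 to 1.09 in CD4-CD8- cells. On the TPM scales Ly6a also turned for the KO effect in CD4+ minus CD4-CD8- cells (0.25 and 0.27), for WT CD4+ minus CD4-CD8- cells (-0.13 and -0.14) and for the same difference in KO cells (0.12 and 0.13); leaving out 1 library gave -0.51 to 0.67, -0.18 to 0.35 and -0.44 to 0.73. Leaving out 1 library also turned Ly6a for the KO effect in CD4-CD8- minus CD8+ cells (-0.18 to 1.06), for KO CD4+ minus CD8+ cells (-0.41 to 0.29) and for KO CD4-CD8- minus CD8+ cells (-0.88 to 0.37). It turned Ly6c2 for the KO effect in CD4+ minus CD4-CD8- cells (-0.38 to 0.04) and Plac8 for WT CD4+ minus CD4-CD8- cells (-0.15 to 0.07); none of these uncalled differences became called, and the cause was not tested. Genes called for the interaction of CD4+ minus CD8+ cells numbered 2965, against 1630 and 1633 on the TPM scales. For CD4-CD8- minus CD8+ cells they numbered 1766, against 973 on log2(TPM + 0.1) and 1167 on log2(TPM + 1), and for CD4+ minus CD4-CD8- cells 502, against 250 on log2(TPM + 0.1) and 305 to 547 on leaving out 1 library. For KO CD4+ minus CD4-CD8- cells they numbered 1062, against 526 and 545 on the TPM scales, 667 with the compared groups only and 662 to 949 on leaving out 1 library. The alternative values comprise member differences and counts of called genes. Of them, 937 kept direction and side of the threshold or, for counts of genes, stayed within 1.5 times. Among member differences 51 lost a call, 13 gained one and 31 turned in sign, and 15 counts of genes moved beyond 1.5 times.

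Library numbers did not pair KO with WT libraries. With the replicate block Ly6c2 changed by 0.67 in KO CD4+ cells (adjusted p = 0.0216), and that block changed no call of a member in any of the 12 comparisons. The replicate block within genotype cannot give KO minus WT. In the other 9 comparisons it lost no call of a member and added 4. Among these was Plac8 for the KO effect in CD4-CD8- minus CD8+ cells (0.62). In WT cells it added Ly6a in CD4+ minus CD8+ cells (-0.65) and in CD4-CD8- minus CD8+ cells (-0.72). It also added Cd14 in WT CD4-CD8- minus CD8+ cells (0.52, edgeR, adjusted p = 0.0274). With this block Ly6a turned in sign for the KO effect in CD4+ minus CD4-CD8- cells (0.03) and for KO CD4+ minus CD4-CD8- cells (0.10), both uncalled. For that KO effect 853 genes were called, against 502.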

Other observations

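Ly6c2 had 5 genes most like it over the 18 libraries: Wdr3, Qsox1, Ngfr, Bst2 and Chil5 (Pearson r of log2 CPM 0.848 to 0.877, a description over libraries of 6 shared groups). All 5 rose in KO CD4+ and in KO CD4-CD8- cells, and 3 of them (Ngfr, Bst2 and Chil5) fell in KO CD8+ cells. Bst2, which encodes tetherin, a surface protein of plasmacytoid DC that interferons induce and that is on the plasmacytoid DC list used above, averaged 127.5 ± 18.9 CPM in KO and 80.3 ± 3.02 CPM in WT CD4+ cells, 182 ± 23.8 and 109 ± 17.2 CPM in KO and WT CD4-CD8- cells, and 102 ± 10.5 and 135 ± 11.6 CPM in KO and WT CD8+ cells (SD, n = 3). Its log2 fold changes were 0.67 ± 0.13, 0.73 ± 0.13 and -0.41 ± 0.13 (edgeR, adjusted p = 0.00059, 0.000435 and 0.0394), the last of which was lost on leaving out any of 4 of the 6 libraries. Ngfr, a neurotrophin receptor, had log2 fold changes of 4.05 ± 0.39, 1.02 ± 0.25 and -2.15 ± 0.28.

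The 4 tested members were not alike over the same 18 libraries. Pearson's r of log2 CPM was -0.61 for Plac8 with Cd14, 0.18 for Ly6c2 with Cd14, 0.13 for Ly6c2 with Ly6a, 0.11 for Ly6c2 with Plac8, -0.11 for Ly6a with Plac8 and -0.22 for Ly6a with Cd14.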
